A study of Mus musculus with 18 samples.

Results

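Rag1 and Rag2 encode the RAG recombinase, and the cohesin subunit RAD21 and the cohesin loader NIPBL were mapped over this locus by chromatin immunoprecipitation and sequencing (ChIP-seq) in pro-B cells of the mouse. The locus was taken as both genes with 150 kb on each side, chr2:101314875-101639658 on mm9 (NCBIM37). It held 258 of the 1011213 peaks in the 14 deposited lists. Merging peaks that overlapped by at least 1 bp gave 74 regions, of 346850 in the genome. RAD21 peaks recurred in all 10 RAD21 libraries at 10 of these regions, among them a region 3.52 kb upstream of the Rag1 start. NIPBL peaks recurred in all 4 NIPBL libraries at 3 regions, which lay at the Rag1 start, at the Traf6 start and 23.9 kb upstream of the Rag2 start.

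The cells were a v-Abl transformed pro-B line, that is, B lineage progenitors immortalised by the Abelson kinase, and were kept for 4 days in 3 uM STI-571, which blocks that kinase and halts division. All groups carried a deletion of the JH segments, dCas9 (a Cas9 that binds but does not cut DNA), an Emu-Bcl2 transgene (Bcl2 under the immunoglobulin heavy chain intronic enhancer) and RAG2 deficiency. RAD21 was mapped in cells with the Sg1-sgRNA guide, called block (n = 2), in cells without it, called control (n = 2), in Ig2b-del/del cells (n = 3) and in Ig2b wild-type cells (n = 3), whose genotype reads as that of control cells in the labels. NIPBL was mapped in block (n = 2) and control cells (n = 2), and the 4 input samples were not used here. The labels do not say whether a genotype was 1 clone or whether replicates were separate cultures, and the p-values reflect the spread among these libraries, which may be technical.

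RAG1 and RAG2 together cut DNA at the recombination signal sequences that flank V, D and J segments, which starts the assembly of antigen receptor genes. Both genes are expressed in developing lymphocytes, lie next to each other in opposite orientation, and are controlled by shared distal elements on the Rag2 side, of which the Erag enhancer acts in B lineage cells. Cohesin is loaded by NIPBL, extrudes chromatin loops and is often halted at sites bound by CTCF, a zinc finger protein with a directional motif. v-Abl pro-B cells treated with an Abl inhibitor are used as a model of V(D)J recombination because they arrest and turn on the RAG genes.

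In the annotation (GENCODE vM1), Rag2 (ENSMUSG00000032864.3) ran on the plus strand at chr2:101464875-101472685 and Rag1 (ENSMUSG00000061311.6) on the minus strand at chr2:101478439-101489658. Their starts were 24783 bp apart with both genes between them, so that they are transcribed towards each other. Another gene, B230118H07Rik, started 31 bp upstream of the Rag1 start on the same strand and spanned both Rag genes. Traf6, a signalling ubiquitin ligase, began upstream of Rag1 on the plus strand, and Prr5l covered the far end of the locus.

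The sequences under the recurrent peaks are shown first, because they are the DNA on which the later values rest. A CTCF core was searched for as the letters CCNNNAGNGGGC or CCNNNAGNTGGC on either strand, in the 300 bp around the centre of each region. It was found in 4 of the 10 regions with RAD21 in all 10 libraries. Genome-wide it stood in 43% of such regions, in 50.3% of those that had no NIPBL peak, in 16.1% of regions with NIPBL in all 4 libraries and no RAD21, and in 4.54% of regions with a peak in a single library. The 4 matches of the locus are written 5′ to 3′ on the strand that carries the core, with the core in capitals and 9 bases on each side.
Rag1 intron, chr2:101486223-101486252, minus strand: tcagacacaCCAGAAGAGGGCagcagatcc
16.0 kb upstream of Rag1, chr2:101505609-101505638, plus strand: ggagaacgaCCAGTAGGTGGCaggattgaa
Traf6 coding exon, chr2:101534170-101534199, plus strand: tgaaaaatgCCACAAGAGGGCaccagttcc
Prr5l untranslated region, chr2:101555969-101555998, plus strand: tttccccagCCTGCAGGGGGCagtagtgag
The core in the Rag1 intron was on the minus strand and the other 3, all upstream of Rag1, were on the plus strand. The remaining 6 constant RAD21 regions held neither spelling in that window, which says only that these letters were not there.

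The only region of the locus with a peak in all 14 libraries lay 23.9 kb upstream of Rag2, and it is shown as the stretch shared by its 4 NIPBL peaks (chr2:101440883-101441018, 136 bases, plus strand), with E-boxes, CANNTG, the letters read by basic helix-loop-helix factors, in capitals.
Upstream of Rag2: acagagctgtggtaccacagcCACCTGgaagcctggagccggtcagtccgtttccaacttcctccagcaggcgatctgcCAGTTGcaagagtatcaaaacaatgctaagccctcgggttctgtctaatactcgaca
It held 2 E-boxes, and 14.9% of regions with NIPBL in all 4 libraries held at least that many in a window of this length. Those windows lay around the middle of the RAD21 peaks where a region had any, and so were not always the shared NIPBL stretch.

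The Rag1 promoter is shown because it was the single region of the Rag genes with NIPBL in every NIPBL library. The 220 bases upstream of the B230118H07Rik start, and so of the Rag1 start as well, read as follows in the direction of Rag1 transcription (chr2:101489690-101489909, minus strand). Capitals mark CCAAT and TGTGGT, searched on both strands. CCAAT is the box bound by NF-Y and TGTGGT the core read by Runx proteins.
Rag1 promoter: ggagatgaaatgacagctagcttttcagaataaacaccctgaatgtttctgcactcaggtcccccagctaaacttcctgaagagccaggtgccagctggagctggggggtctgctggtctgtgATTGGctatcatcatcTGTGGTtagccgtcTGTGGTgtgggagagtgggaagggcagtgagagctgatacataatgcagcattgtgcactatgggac
CCAAT occurred once, in reverse orientation (ATTGG), beginning 128 bp upstream of the Rag1 start. TGTGGT occurred 2 times, beginning 112 and 98 bp upstream. Of 22350 protein-coding genes, 31.9% held CCAAT, 11.5% held TGTGGT and 3.32% held both in the window at the same distance from the start.

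Depth could not be read from the lists, which give called peaks and no read totals. The lists held 58912 to 82776 peaks for RAD21 in block and control cells, 44783 to 75679 for RAD21 in Ig2b-del/del and wild-type cells, and 63153 to 123573 for NIPBL. The fold of a peak is the authors' MACS2 value, its enrichment over the background estimate of its own list, so folds from different lists are not on 1 scale. The names in the Ig2b lists mention no control library and say that duplicates were taken out, unlike the others, and the effect of this on Ig2b folds, coverage and counts over all 10 RAD21 libraries was not tested. The names in RAD21 replicates 1 and replicates 2 of block and control cells follow 2 styles. The labels do not say what these styles stand for, and they coincide with replicate number. A technical difference therefore cannot be told apart from one between cultures. The main fits did not model this split. Of 8 pro-B marker genes, 7 had a RAD21 peak within 5 kb of the start in all 10 RAD21 libraries and 8 a NIPBL peak in all 4 NIPBL libraries. The same counts were 1 and 2 of 6 T cell genes, 1 and 3 of 5 myeloid genes, and 2 and 2 of 4 erythroid genes. Of all genes, 23.4% had RAD21 in all 10 and 51.7% had NIPBL in all 4. The lists are short, and these counts say nothing of expression.

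**Figure D1:**
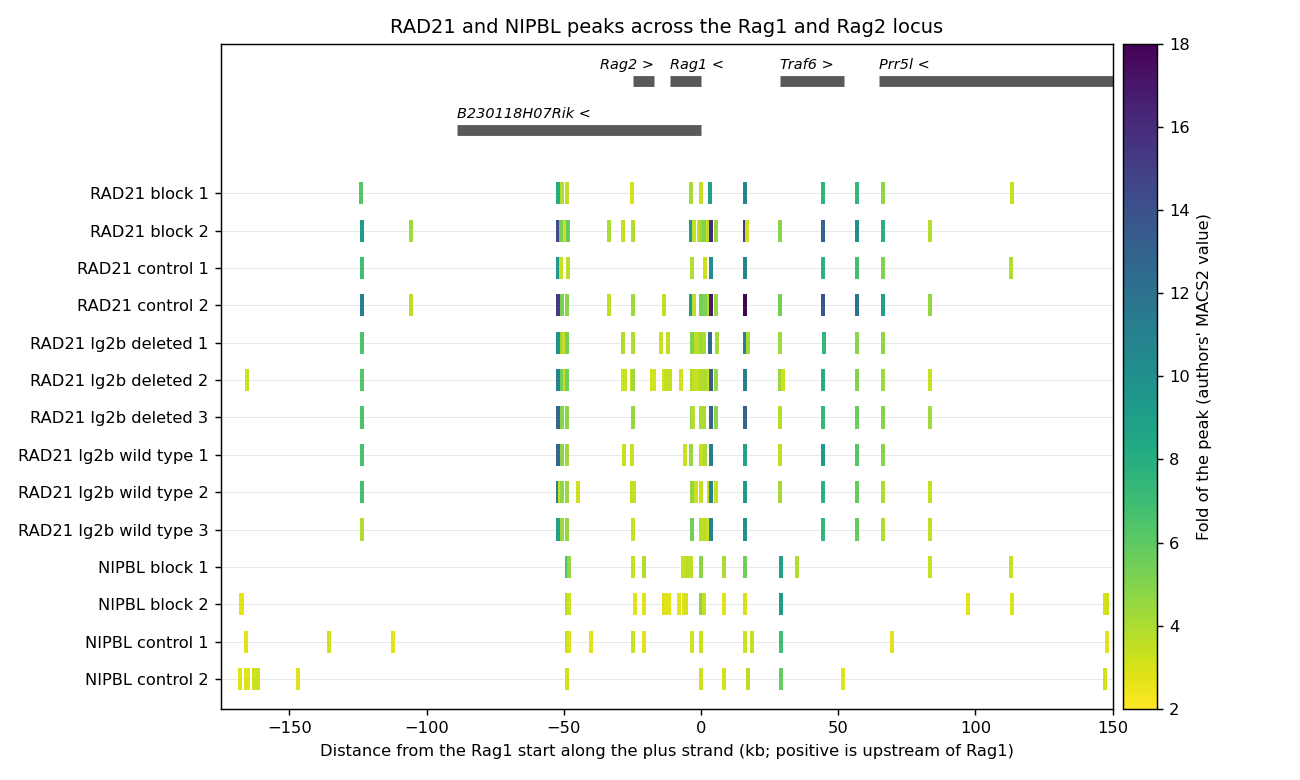
Each tick is the centre of a peak in 1 of 14 libraries (rows), placed by its distance in kb from the Rag1 start along the plus strand and coloured by the authors' fold, with the genes drawn to scale above. RAD21 rows share a ladder of recurrent peaks on both sides of the Rag genes, and NIPBL rows share the peak at the Traf6 start.

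The 10 constant RAD21 regions were 13.5% of the 74 regions, against 7.37% of regions in the genome, and the 3 constant NIPBL regions were 4.05%, against 6.77%. No NIPBL peak overlapped 7 of the 10, where 57.4% of constant RAD21 regions genome-wide had none. Only 1 of the 10 had NIPBL in all 4 libraries, against 17.8% genome-wide. Of the 3 constant NIPBL regions, 1 had RAD21 in all 10 libraries, against 19.4% of such regions in the genome, and none lacked RAD21 altogether, against 38.5%. Both proteins had a peak in at least 1 library in 11 regions, 14.9% against 10.5% genome-wide, and 41 regions (55.4%, against 63.4%) had a peak in a single library, 17 of them with RAD21 and 24 with NIPBL. With so few regions, these shares are a description of the locus and carry no test.

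The region 3.52 kb upstream of the Rag1 start (chr2:101492757-101493480) had RAD21 in all 10 libraries and NIPBL in none. Its RAD21 fold was 9.07 and 16.1 in block cells, 10.1 and 17.0 in control cells, 12.7, 13.4 and 13.0 in Ig2b-del/del cells and 11.4, 10.8 and 10.9 in Ig2b wild-type cells. Peak widths were 710 and 508 bp in block, 533 and 661 bp in control, 619, 425 and 316 bp in Ig2b-del/del and 339, 410 and 273 bp in Ig2b wild-type cells. The higher folds in block and control cells were both replicate 2. Within its own list this peak ranked between percentiles 93.1 and 98.1 of the folds, and in 4 of 10 RAD21 libraries it was the highest fold of the locus.

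The region 16.0 kb upstream of Rag1 (chr2:101505310-101506037), which carries a CTCF core, was the highest in another 4 RAD21 libraries. Its RAD21 fold was 10.9 and 15.4 in block, 10.9 and 17.9 in control, 11.1, 11.4 and 13.1 in Ig2b-del/del and 8.72, 9.26 and 9.85 in Ig2b wild-type cells. NIPBL peaks lay there in 3 of 4 libraries, with folds of 5.50 and 2.98 in block cells and 3.21 in 1 of 2 control cells. Of the 10 constant RAD21 regions, Ig2b-del/del folds were above Ig2b wild-type folds without overlap at 3 (here, 3.52 kb upstream of Rag1 and 23.9 kb upstream of Rag2), below them without overlap at 1 (56.8 kb upstream of Rag1) and overlapped them at 6. Each fold is scaled within its own list, and these differences were not tested. The share of constant RAD21 regions separated in this way over the genome was not counted. The counts are therefore not read as a trait of this locus.

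Inside Rag1, the region in the intron 3.45 kb downstream of the start (chr2:101485936-101486495) had RAD21 in all 10 libraries. Its fold was 4.08 and 9.22 in block, 3.76 and 9.13 in control, 5.11, 4.18 and 4.67 in Ig2b-del/del and 4.53, 4.60 and 5.46 in Ig2b wild-type cells. Replicate 2 exceeded replicate 1 by 2.26 times in block and by 2.43 times in control cells, the widest such gap among the 10 constant regions, while in all 10 replicate 2 was higher in both groups. NIPBL was present in 1 block library, at a fold of 3.51, and in 1 control library, at 3.12.

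The Rag1 and B230118H07Rik start (chr2:101489245-101490173) had NIPBL in all 4 libraries and RAD21 in 9 of 10. RAD21 folds were 3.40 and 4.35 in block, 5.33 in control replicate 2, with no peak in control replicate 1, 4.42, 3.99 and 4.00 in Ig2b-del/del and 3.40, 3.33 and 3.63 in Ig2b wild-type cells. RAD21 covered 167 and 533 bp of it in block, 598 bp in the 1 control library, 667, 843 and 297 bp in Ig2b-del/del and 325, 364 and 300 bp in Ig2b wild-type cells. NIPBL folds were 4.83 and 4.74 in block cells and 3.28 and 3.20 in control cells, over 203 and 315 bp in block and 51 and 165 bp in control. Block exceeded control in both measures of NIPBL, without overlap, and that difference is taken up over the whole promoter region below.

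The Rag2 start (chr2:101464563-101465205) had RAD21 in 9 of 10 libraries, as at the Rag1 start, and NIPBL in 2 of 4. RAD21 folds were 3.03 and 3.85 in block, 4.39 in control replicate 2 with none in control replicate 1, 3.95, 4.28 and 4.58 in Ig2b-del/del, and 3.29, 3.53 and 3.37 in Ig2b wild-type cells. NIPBL folds were 3.36 in 1 block and 3.25 in 1 control library. The value of 3.36 was the lowest fold of its list. The Rag2 coding sequence, chr2:101469504-101471084, held no peak in any of the 14 libraries. The labels say the line is RAG2 deficient and not how, so missing DNA and missing peaks cannot be told apart there.

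Some NIPBL peaks inside the Rag genes had little or no RAD21 beside them. In the Rag2 intron, 4.16 kb from the start, RAD21 had no peak. NIPBL had peaks there in both block libraries (folds 3.82 and 2.69) and 1 control library (2.74). The folds of 2.69 and 2.74 were the lowest in their lists. In the Rag1 coding sequence (chr2:101481833-101484952), RAD21 peaks covered 0 bp in 8 of 10 libraries, 93 bp in Ig2b-del/del replicate 2 and 146 bp in Ig2b wild-type replicate 1. NIPBL covered 655 and 934 bp of it in block cells and 0 bp in both control libraries. This difference was not tested, and the share of stretches separated in this way over the genome was not counted. Block replicate 2 had the longest NIPBL list. The region there with NIPBL in both block libraries, 5.30 kb from the Rag1 start, had folds of 3.72 and 2.96.

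Around the Rag1 start, 7 further regions had RAD21 only or nearly so. The most frequent, 1.29 kb upstream (chr2:101490529-101491526), had RAD21 in 8 of 10 libraries at folds of 3.25 to 5.11 and NIPBL in 1 at 3.39. A region 2.86 kb upstream had RAD21 in 4 libraries at 3.08 to 3.67, and one 2.42 kb upstream in 2 at 3.28 and 3.35. In the Rag1 intron, regions 2.62, 1.71 and 1.02 kb from the start each had RAD21 in 3 libraries, at folds of 3.22 to 3.72, and one 2.92 kb from it had RAD21 in Ig2b-del/del replicate 3 alone, at 3.70. The folds of these 7 regions stayed at or below 5.11, against 9.07 or more at the region 3.52 kb upstream. Among them, 3.25, 3.08, 3.22 and 3.70 were the lowest folds of the lists they came from.

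The other 10 regions within 5 kb of the Rag2 start or inside either gene had folds of 3.84 at most. Upstream of Rag2, a region 3.53 kb away had RAD21 in 4 libraries at 3.22 to 3.84, and regions 3.08 and 0.513 kb away had it only in Ig2b-del/del replicate 2, at 3.33 and 3.20. Ig2b-del/del replicate 2 alone also had RAD21 at 2 places in the Rag2 3′ region and 1 in the Rag1 coding sequence, all at 3.08. NIPBL alone occurred in block replicate 2 in the Rag2 intron and at the Rag1 3′ end, both at 2.69, and in block replicate 1 in the Rag1 coding sequence at 3.36. A region 5.73 kb from the Rag1 start had RAD21 in Ig2b wild-type replicate 1 at 3.27 and NIPBL in block replicate 2 at 2.82. The folds of 3.08, 2.69, 3.36 and 3.27 were each the lowest in their own list. Of these 10 regions, 8 were seen in 1 library, 7 of them in Ig2b-del/del replicate 2 or NIPBL block replicate 2, which had the longest lists of the Ig2b and NIPBL libraries.

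On the Rag2 side, the side of the known Rag enhancers, 3 constant RAD21 regions stood close together in an intron of B230118H07Rik. The outermost, 27.3 kb upstream of Rag2 (chr2:101437086-101438026), was the strongest, with folds of 8.23 and 14.4 in block, 9.55 and 15.3 in control, 9.94, 11.0 and 12.8 in Ig2b-del/del and 12.8, 11.0 and 8.76 in Ig2b wild-type cells. It was the highest RAD21 fold of the locus in 2 libraries, and NIPBL had no peak there. Its neighbour 26.0 kb upstream (chr2:101438222-101439424) was broad and low, with a median covered length of 765.5 bp per library and folds of 3.28 to 5.46. Whether any of these regions is the Erag enhancer was not tested, as the files used here give no enhancer coordinates.

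The innermost, 23.9 kb upstream of Rag2 (chr2:101439879-101441440), had both proteins in every library. RAD21 folds were 3.52 and 5.77 in block, 3.59 and 4.85 in control, 5.29, 5.52 and 4.75 in Ig2b-del/del and 4.30, 4.40 and 4.60 in Ig2b wild-type cells. NIPBL folds were 6.62 and 3.87 in block and 3.38 and 3.15 in control cells. RAD21 covered 133 to 1244 bp of it per library, in 2 peaks in block replicate 2 and in Ig2b-del/del replicate 2, and NIPBL covered 153 to 266 bp. In 8 of the 10 RAD21 libraries the covered length exceeded that of every NIPBL library. RAD21 peaks were also wider over the whole lists, with median widths of 211 to 305 bp against 142 to 180 bp for NIPBL. Farther out, 98.8 kb upstream of Rag2 (chr2:101365635-101366335), RAD21 stood alone in all 10 libraries at a median fold of 6.60 (3.89 to 11.2).

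On the Rag1 side, constant RAD21 regions continued through Traf6 to the end of Prr5l. The region in a Traf6 coding exon, 44.6 kb upstream of Rag1 (chr2:101533777-101534576), had a median fold of 7.81 (7.48 to 13.9). The one 56.8 kb upstream, past the end of Traf6 (chr2:101546256-101546745), had a median of 6.07 (4.83 to 12.0), with 4.83, 5.01 and 5.64 in Ig2b-del/del and 6.28, 5.73 and 5.87 in Ig2b wild-type cells. That 66.3 kb upstream, in a Prr5l untranslated region (chr2:101555621-101556386), had a median of 4.81 (3.89 to 9.12). None of these 3 had NIPBL in any library. In each of them the 2 highest RAD21 folds were those of block replicate 2 and control replicate 2.

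The Traf6 start was the strongest NIPBL site of the locus in all 4 NIPBL libraries (chr2:101518252-101519204, 28.8 kb upstream of Rag1). NIPBL folds were 8.87 and 9.14 in block and 6.84 and 5.78 in control cells, at or above percentile 95.2 of the folds of each list. RAD21 was present in 7 of 10 libraries at folds of 3.53 to 5.36 and absent in block replicate 1, control replicate 1 and Ig2b wild-type replicate 3. At the region 3.52 kb upstream of Rag1, by contrast, RAD21 was high in every library and NIPBL had no peak.

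**Figure D2:**
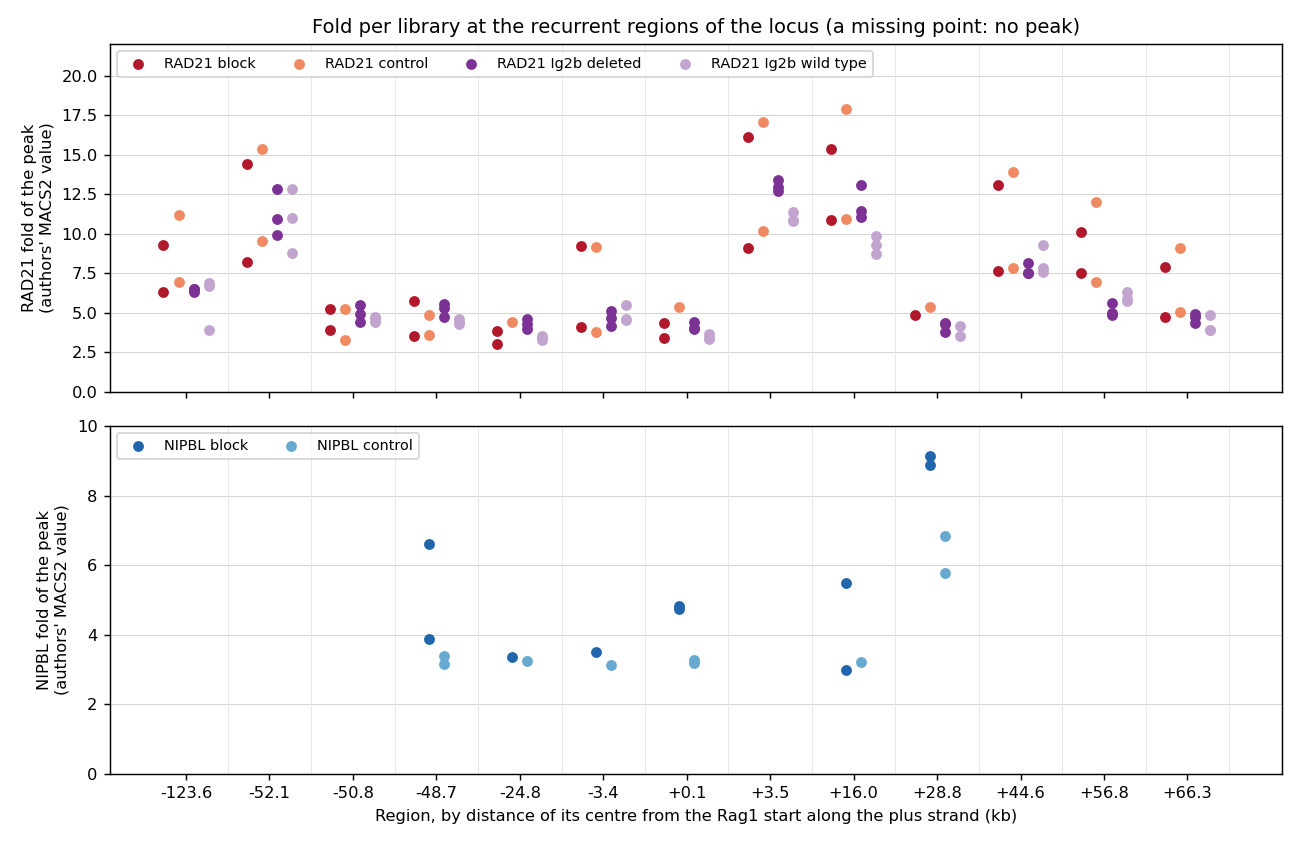
The authors' fold per library (points, coloured by group) at the 10 regions with RAD21 in all 10 libraries, the 2 others with NIPBL in all 4 and the Rag2 start, ordered by distance in kb from the Rag1 start along the plus strand, with RAD21 above and NIPBL below. RAD21 peaks reach 17.9 upstream of Rag1, and NIPBL peaks reach 9.14 at the Traf6 start.

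The remaining 42 regions were described by counts. They were 51 to 518 bp wide, their highest fold was 4.76, and 32 of them had a peak in a single library.

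RAD21 was next compared with NIPBL over whole promoter regions, as the length covered by peaks within 5 kb of each gene start. Around Rag1 the RAD21 peaks covered 1056 and 2561 bp in block and 742 and 2828 bp in control cells, against 350 and 366 bp for NIPBL in block and 185 and 165 bp for NIPBL in control cells. Every RAD21 library was above every NIPBL library, and this held with RAD21 replicates 1 alone (mean 899 bp) and replicates 2 alone (mean 2694.5 bp). The log2 difference of covered bp + 200, RAD21 minus NIPBL, was 1.96 (SE 0.42), with an adjusted p of 0.00733 in limma with Benjamini-Hochberg adjustment over 13713 genes. Of the genes tested, 10.3% were called higher with RAD21 and 33.6% lower, and the median difference was −0.76, so Rag1 lay on the other side of 0 from the median gene. Within 2 kb of the start the difference was 0.86 (adjusted p 0.266 in limma). That span leaves out the regions 3.52 kb upstream and 3.45 kb downstream, among others. Which of them the change rests on was not tested.

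Around Rag2 the RAD21 peaks covered 92 and 426 bp in block and 0 and 560 bp in control cells, against 288 and 363 bp for NIPBL in block and 476 and 0 bp for NIPBL in control cells. The groups overlapped, and 1 control library of each protein had no peak. The log2 difference was −0.10 (SE 0.55, adjusted p 0.887 in limma). With RAD21 replicates 1 the mean was 46 bp and with replicates 2 it was 493 bp, on either side of the NIPBL mean of 281.75 bp, and quantile normalization, which evens out the lists, turned the difference to 0.65 (adjusted p 0.100 in limma).

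Traf6 was called in the other direction, with RAD21 over 0 and 201 bp in block and 0 and 335 bp in control cells, against NIPBL over 765 and 791 bp in block and 782 and 660 bp in control cells. Its log2 difference was −1.64 (SE 0.37, adjusted p 0.00934 in limma), and −0.96 with quantile normalization.

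**Figure D3:**
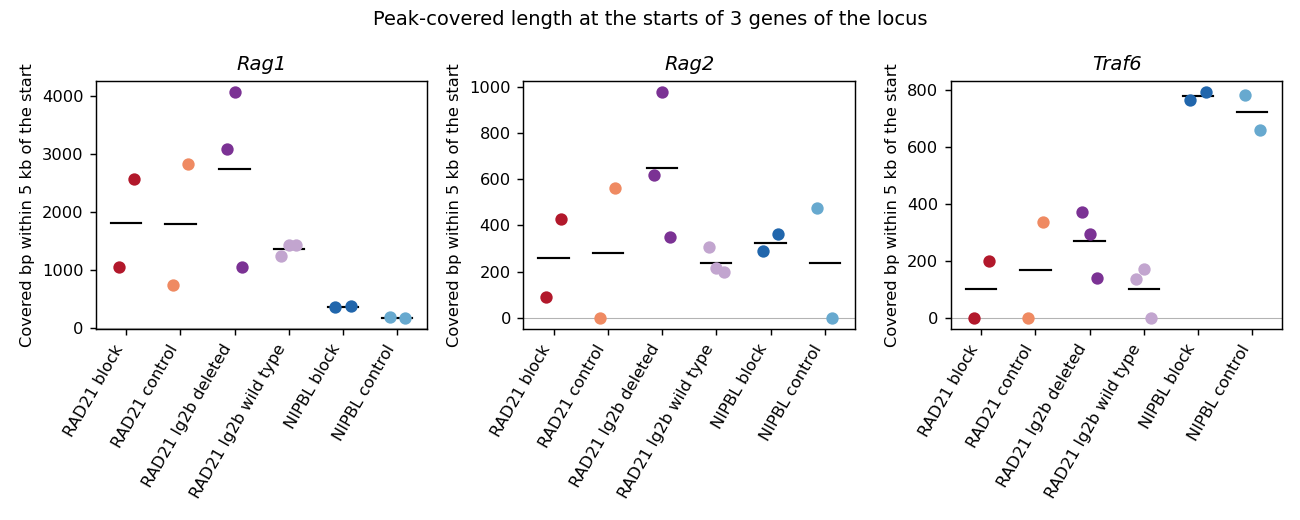
Peak-covered length in bp within 5 kb of the starts of Rag1, Rag2 and Traf6, 1 point per library and a line at the mean of each group. RAD21 exceeds NIPBL around Rag1 in every library, overlaps it around Rag2 and lies below it around Traf6.

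The same comparison in 10 kb windows placed the difference along the locus. Of 31 windows inside it, 13 had enough coverage to be tested, 7 were called higher with RAD21 and 2 lower (limma adjusted p under 0.05), where 40.4% of tested windows in the genome were higher and 24.7% lower. The largest difference, 2.95 (SE 0.27, adjusted p 0.00014 in limma), was in the window with the regions 26.0 and 27.3 kb upstream of Rag2, where RAD21 covered 1211 and 1974 bp in block and 748 and 1753 bp in control cells, and NIPBL 0 bp in all 4 libraries. The window just upstream of Rag1, from 0.343 to 10.3 kb, followed with 1.88 (SE 0.40, adjusted p 0.00431 in limma), where RAD21 averaged 1171.5 ± 622 bp and NIPBL 159 ± 107 bp (SD, n = 4 each).

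The window with the region 98.8 kb upstream of Rag2 had a difference of 1.78, that over the Traf6 coding exon 1.77 and that in Prr5l 1.58. The windows called lower were the Traf6 start, at −1.64, and one at the far Rag2 end, at −1.02. At the far end RAD21 covered 0 bp in all 4 libraries. NIPBL covered 0 and 387 bp there in block and 173 and 424 bp in control cells. That window passed the filter through NIPBL alone. The peaks of NIPBL block replicate 2 and control replicate 1 in it had the lowest fold of their lists. The windows over the Rag2 start and over Rag1 itself were not called, at −0.10 (SE 0.55) and 0.10 (SE 0.56).

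**Figure D4:**
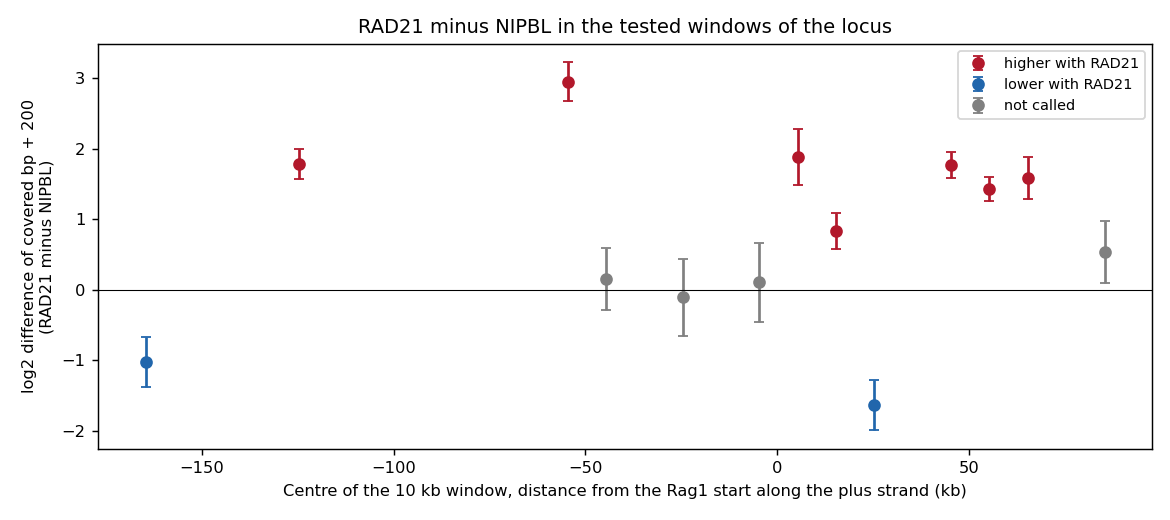
The log2 difference of covered bp + 200, RAD21 minus NIPBL, in the 13 tested 10 kb windows, by distance in kb of the window centre from the Rag1 start along the plus strand, with bars of 1 standard error. Windows called higher stand on both sides of the Rag genes, and those over Rag2 and Rag1 themselves lie near 0.

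Over the whole locus, RAD21 covered 1.68% and 2.94% in block and 1.08% and 2.94% in control cells, against 0.978% and 1.57% for NIPBL in block and 0.941% and 0.647% for NIPBL in control cells. The means were 2.16% ± 0.936 and 1.03% ± 0.388 (SD, n = 4 each), and NIPBL block replicate 2 lay above RAD21 control replicate 1. The difference of 1.13 percentage points had a p of 0.0571 in an exact two-sided permutation test, in which the smallest possible p is 0.0286. RAD21 replicates 1 averaged 1.38% and replicates 2 averaged 2.94%, both above the NIPBL mean. Without RAD21 control replicate 1 the difference was 1.49 points (exact permutation p 0.0286, the smallest possible for 3 against 4). Leaving out any other library gave an exact permutation p of 0.0571 or 0.143, so the result passed only without that library. Relative to each library's coverage of the genome, RAD21 was 1.79 to 2.46 times as dense in the locus and NIPBL 0.788 to 1.39 times, without overlap (exact permutation p 0.0286).

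The guide comparison asks whether cells with the Sg1-sgRNA guide differed from control cells at Rag1 and Rag2. For RAD21 no difference was detected. The log2 difference, block minus control, was 0.14 (SE 0.86) at Rag1 and 0.13 (SE 0.90) at Rag2, both with an adjusted p of 1.00 in limma. Replicate number was not in this fit, so the gap between replicates 1 and 2 is part of these SEs. At Rag1, block minus control was 314 bp within replicate 1 and −267 bp within replicate 2. The covered share of the locus differed by 0.605 points within replicate 1 and by −0.00678 points within replicate 2, and its mean was 2.31% ± 0.889 in block against 2.01% ± 1.32 in control cells (SD, n = 2 each, exact permutation p 1.00, smallest possible 0.333). No gene of 11375 was called in either direction (0%), and 3 had an unadjusted p under 0.05 in limma.

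For NIPBL, the Rag1 start was covered over 350 and 366 bp in block against 185 and 165 bp in control cells, without overlap, and the log2 difference was 0.57 (SE 0.15, unadjusted p 0.0216, adjusted p 0.435 in limma). At Rag2 the values were 288 and 363 bp in block against 476 and 0 bp in control cells, with a difference of 0.51 (SE 0.65, adjusted p 0.764 in limma). The locus was covered to 1.28% ± 0.420 in block against 0.794% ± 0.208 in control cells (SD, n = 2 each), again without overlap, at the smallest p that an exact permutation test of 2 against 2 allows, 0.333. The difference of 0.482 points was 0.184 points without NIPBL block replicate 2 and 0.779 points without block replicate 1. No gene of 13774 was called (0%), 1431 had an unadjusted p under 0.05 in limma, and the difference between the RAD21 and NIPBL block effects was −0.43 at Rag1 and −0.38 at Rag2 (both adjusted p 1.00 in limma, 0 of 13713 genes called, 122 with an unadjusted p under 0.05).

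The Ig2b comparison sets the homozygous deletion against wild type for RAD21. Around Rag1, RAD21 covered 3094, 4068 and 1042 bp in Ig2b-del/del and 1241, 1430 and 1428 bp in Ig2b wild-type cells, with a log2 difference of 0.73 (SE 0.47, adjusted p 0.578 in limma). Around Rag2 it covered 618, 975 and 349 bp in Ig2b-del/del and 306, 217 and 197 bp in Ig2b wild-type cells, without overlap, with a difference of 0.89 (SE 0.32, unadjusted p 0.0323, adjusted p 0.528 in limma). Ig2b-del/del replicate 3 had the shortest list of its group and the lowest value at both starts. The locus was covered to 2.62% ± 0.965 in Ig2b-del/del against 1.59% ± 0.184 in Ig2b wild-type cells (SD, n = 3 each, exact permutation p 0.300, smallest possible 0.100). The genome was covered to 0.451% to 0.952% in Ig2b-del/del and 0.438% to 0.575% in Ig2b wild-type libraries, and relative to that coverage the locus was 3.74 ± 0.235 times as dense in Ig2b-del/del and 3.08 ± 0.0702 times in Ig2b wild-type cells, without overlap (SD, n = 3 each, exact permutation p 0.100). Lists of equal length and −log10 q of at least 3 also gave no overlap, at 0.788 and 0.540 points (both exact permutation p 0.100). Leaving out Ig2b-del/del replicate 2 took the covered share difference from 1.03 to 0.580 points and the Rag1 difference to 0.37, and leaving out replicate 3 took them to 1.54 points and 1.26. No gene of 8699 was called (0%), and 788 had an unadjusted p under 0.05 in limma.

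Among 15 genes of V(D)J recombination and end joining, Rag1 and Rag2 included, 7 had RAD21 within 5 kb of the start in all 10 RAD21 libraries and 12 had NIPBL in all 4, against 23.4% and 51.7% of all genes. In the 4 RAD21 libraries of block and control cells alone, the count was also 7, against 32.8% of all genes. Of the 14 tested, 3 were higher with RAD21 than with NIPBL and 3 lower, against 10.3% higher and 33.6% lower of all genes tested. Their median log2 difference was −0.24, against −0.76 over all genes tested. Rag1 had the largest positive difference of the list. Xrcc6, which encodes the Ku70 end-binding protein, had 1.52 (SE 0.27, adjusted p 0.00333 in limma). The largest negative ones were Hmgb2, a DNA-bending protein that assists RAG, at −2.71 (SE 0.30, adjusted p 0.000535 in limma), and the damage kinase gene Atm, at −2.03 (SE 0.41, adjusted p 0.00596 in limma). All 4 kept their direction under quantile normalization.

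Among 13 genes for factors reported to act on Rag transcription in B lineage cells, all 13 had RAD21 in all 10 libraries and NIPBL in all 4. The shares of all genes were 23.4% and 51.7%. Of them 2 were higher with RAD21 than with NIPBL and none lower, against 10.3% higher and 33.6% lower of all genes tested. Their median was 0.0046. With quantile normalization 3 were higher, Foxp1 added (2.10, adjusted p 0.000378 in limma), and 1 lower, Bcl11a (−0.99, adjusted p 0.0161 in limma). The calls over all genes with this normalization are given in the last section. Runx1, a Runt factor, had the largest difference at 1.63 (SE 0.30, adjusted p 0.00386 in limma). Gfi1b, a zinc finger repressor, had 1.26 (SE 0.24, adjusted p 0.00423 in limma). Foxp1, a forkhead factor, had 1.53 in the fit without normalization (SE 0.56, adjusted p 0.0562 in limma) and Tcf12, an E-protein gene, −0.99 (SE 0.60, adjusted p 0.209 in limma). Rag1 thus lay above every gene of this list in its difference, while Rag2 lay inside its range.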

How the data were processed

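RAD21 and NIPBL ChIP-seq of a v-Abl pro-B line gave 14 peak lists in 6 groups, taken from the sample labels. Per the labels' protocols, chromatin was fixed in 1% formaldehyde and 5 ug of antibody was used. Per the submitters' processing notes, Bowtie2 2.2.8, SAMtools 1.8 and MACS2 were used with mm9; settings are not given in the sources used here. Each list has 9 columns without a header and was called per library. The fold is a ratio the authors made with MACS2. The deposited lists give −log10 p and −log10 q, and a score that was not used.

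Covered length was tested with limma 3.58.1 (R 4.3.3) on log2 of covered bp + 200, for features with a mean of at least 100 bp, two-sided, Benjamini-Hochberg over all features, adjusted p under 0.05, with the guide as a covariate for RAD21 minus NIPBL. The fit was run on simulated data with independent noise, 1 spread for all genes and no shared replicate difference. That run does not show how the test behaves with the replicate difference in these lists. The covered share of the locus had an exact permutation test. Sequences were read from NCBIM37. The sequence of 1 region is not reported here. Regions were named within 5 kb of either Rag start, inside either gene, or with a peak in all RAD21 or all NIPBL libraries, and windows up to 5 per direction; lists by their 4 largest differences. Members and lists were chosen with earlier results of these data known. Alternatives were −log10 q of at least 3, lists matched in length, 500 bp added, no filter, quantile normalization, replicate block, 2 kb around starts, 50 kb flanks, 50% overlap, coverage relative to the genome, all 10 RAD21 libraries, and leaving out each library. Python 3.11.15, numpy 2.4.6, pandas 2.3.3 and matplotlib 3.10.9 were used.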

Additional observations from a re-analysis of the deposited data

How the results depend on the processing

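Read depth is unknown, so only called peaks could be compared, and a site without a peak may still hold the protein. The higher RAD21 coverage of Rag1 was called in 16 of 17 alternatives (log2 difference 0.86 to 2.50, adjusted p 5.09e-05 to 0.266 in limma); it was not called within 2 kb of the start. Quantile normalization changed the calls over all genes, RAD21 minus NIPBL, to 3384 higher and 3260 lower, against 1418 and 4611. At Rag2 the difference of −0.10 turned positive with lists matched in length (0.27), quantile normalization (0.65), 2 kb around the start (0.31) and all 10 RAD21 libraries (0.22), and ranged from −0.53 to 0.24 leaving out 1 library (positive without RAD21 block 1, RAD21 control 1 or NIPBL control 1). For RAD21 block minus control, Rag1 turned to −0.081 with quantile normalization and ranged from −0.70 (without RAD21 control 1; −0.43 without RAD21 block 2) to 0.98 leaving out 1 library, and Rag2 turned to −0.96 with −log10 q of at least 3, −0.20 with lists of equal length and −0.036 with quantile normalization, and ranged from −0.83 (without RAD21 control 1; −0.42 without RAD21 block 2) to 1.10 leaving out 1 library. NIPBL block minus control at Rag2 ranged from −0.37 (without NIPBL control 2) to 1.39. None of these was called, and where 1 library was left in a group it was assumed to vary like the others. The RAD21 minus NIPBL difference in locus coverage, 1.13 points, passed the threshold with −log10 q of at least 3 (1.45) and lists of equal length (1.21). It also passed relative to the genome (0.958) and with all 10 RAD21 libraries (1.09). Leaving out 1 library gave 0.864 to 1.49 and passed only without RAD21 control 1 (1.49). With 50 kb flanks the difference was 2.22 (exact permutation p 0.171, with overlap). The Ig2b difference in locus coverage ranged from 0.580 to 1.54 points and that of NIPBL block minus control from 0.184 to 0.779 leaving out 1 library. At 50 kb flanks they were 2.65 (exact permutation p 0.300, with overlap) and 1.37 (exact permutation p 0.333, without overlap). RAD21 block minus control ranged from −0.635 (without RAD21 control 1; −0.329 without RAD21 block 2) to 1.23 points leaving out 1 library. With −log10 q of at least 3, 311 genes were called for NIPBL block minus control and 155 for Ig2b deleted minus wild type, against 0, with neither Rag gene among them; the cause was not tested. The window at the far Rag2 end was not called with no filter or leaving out any of 5 libraries. Replicate numbers correlated at −0.0266 for NIPBL and at 0.0205, 0.166 and 0.178 for Ig2b, so they were not taken as pairs there. For RAD21 block and control they correlated at 0.704, a shared replicate difference that the main fit left in its error. Only the alternative with a replicate block took it out. With the replicate block, 6716 gene starts were called for RAD21 minus NIPBL, against 6029, and 0 in the other comparisons, and the locus p values were 0.0556, 1.00, 0.500 and 0.250. RAD21 and NIPBL block libraries of the same number correlated at −0.147, and the crossed pairing, added after the data were seen, called 6615 gene starts and 36440 windows. With 50% overlap, 10 regions of the locus were shared by both proteins, against 11.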
